A study of Mus musculus with 30 samples.

Results

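The synaptic vesicle and scaffold genes are a set of 39 named mouse genes, taken by symbol from the 17420 genes of the deposited table and followed through whole spinal cord. They fall into 6 roles: 13 genes of the vesicle membrane, 7 of the fusion machinery, 3 active zone scaffolds, 9 postsynaptic scaffolds and kinases, 5 adhesion molecules, and 2 markers of neuronal identity and cytoskeleton. The study set mice lacking acid alpha-glucosidase (Gaa KO, a model of Pompe disease) against wild-type (WT) mice, and asked what an AAV gene therapy with secreted enzyme changes. The 15 cords, from males of 4 months, form 5 groups of 3.

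On the B6;129 background, written B6129 here, the groups were untreated Gaa KO and untreated Gaa WT. The other 3 groups were on B6;129;DBA2/J, written DBA mix here, and all 3 carried Ltbp4D36/D36, WT included. They were treated Gaa KO, untreated Gaa KO and untreated Gaa WT. Treatment was a temporal vein injection of the AAV9 vector AAV9-sp7-Δ8-hGAAco at postnatal day 1 to 2, which expresses human GAA from a liver-muscle promoter (LiMP). Every B6129 library bears the series letter A in its column name and every DBA mix library the letter B, and the effects of series and background cannot be told apart.

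At a chemical synapse, transmitter is loaded into vesicles, the vesicles dock and are primed at an active zone, and SNARE proteins on the vesicle and plasma membranes zip together when calcium binds synaptotagmin. Across the cleft, scaffold proteins hold receptors and the kinase CaMKII in place, and neurexins and neuroligins bridge both sides. Acid alpha-glucosidase degrades glycogen in lysosomes, and in Pompe disease glycogen builds up in spinal cord neurons as well as in muscle.

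Values are the deposited signal, a normalized count in which a gene without reads stands just above 0. Recovered totals ran from 19208733 to 34207758 reads per cord library. Differences are log2 ± SE from a limma fit of log2(signal + 0.5) over the 15 cord libraries, and a gene counts as called where its p, adjusted by Benjamini-Hochberg over the 15838 genes tested, is under 0.05. All 39 genes passed the filter on low values. Gaa stood at 15.7 to 17.7 in KO against 218 to 236 in WT cords on B6129, and at 8.09 to 10.3 in treated KO and 10.6 to 13.4 in KO against 131 to 144 in WT cords on the DBA mix. Pan-neuronal and glial markers were present in every cord library. Skeletal muscle markers (Acta1, Ckm, Mylpf, Tnnt3 and Myh4 summed) were high in a pair of libraries, 1084 in the third treated KO library and 1321 in WT replicate 3 of the DBA mix, against 26.6 to 378 in the other 13. In quadriceps the same sum was 111984 to 212995.

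In WT cord, Cplx1, Snap25, Tubb3, Rab3a, Syp and Vamp1 were the 6 most abundant members per kilobase of exon, in this order on both backgrounds. Cplx1, which encodes a complexin that clamps and then promotes vesicle fusion, had 483 ± 36.6 signal per kilobase on the DBA mix and 389.9 ± 6.34 on B6129 (SD, n = 3 each). Snap25, a plasma membrane SNARE, had 337 ± 33.6 and 200.5 ± 4.14 signal per kilobase on the DBA mix and on B6129. Tubb3, the neuronal beta tubulin, had 284 ± 23.8 and 170.2 ± 3.99 on the same scale, Rab3a, a small GTPase of the vesicle, 231 ± 6.31 and 125 ± 1.80, and the vesicle protein synaptophysin (Syp) 116 ± 10.4 and 97.8 ± 1.21. The libraries of Snap25 and Tubb3 overlapped on the DBA mix and not on B6129, and those of Cplx1 lay above both on either background. Homer1 and Shank2, a pair of postsynaptic scaffolds, and Nlgn1, a postsynaptic adhesion molecule, stood near the bottom of the order on the DBA mix with 1.15 ± 0.0505, 0.966 ± 0.0765 and 0.959 ± 0.0554 signal per kilobase, and the libraries of Shank2 and Nlgn1 overlapped there.

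**Figure D1:**
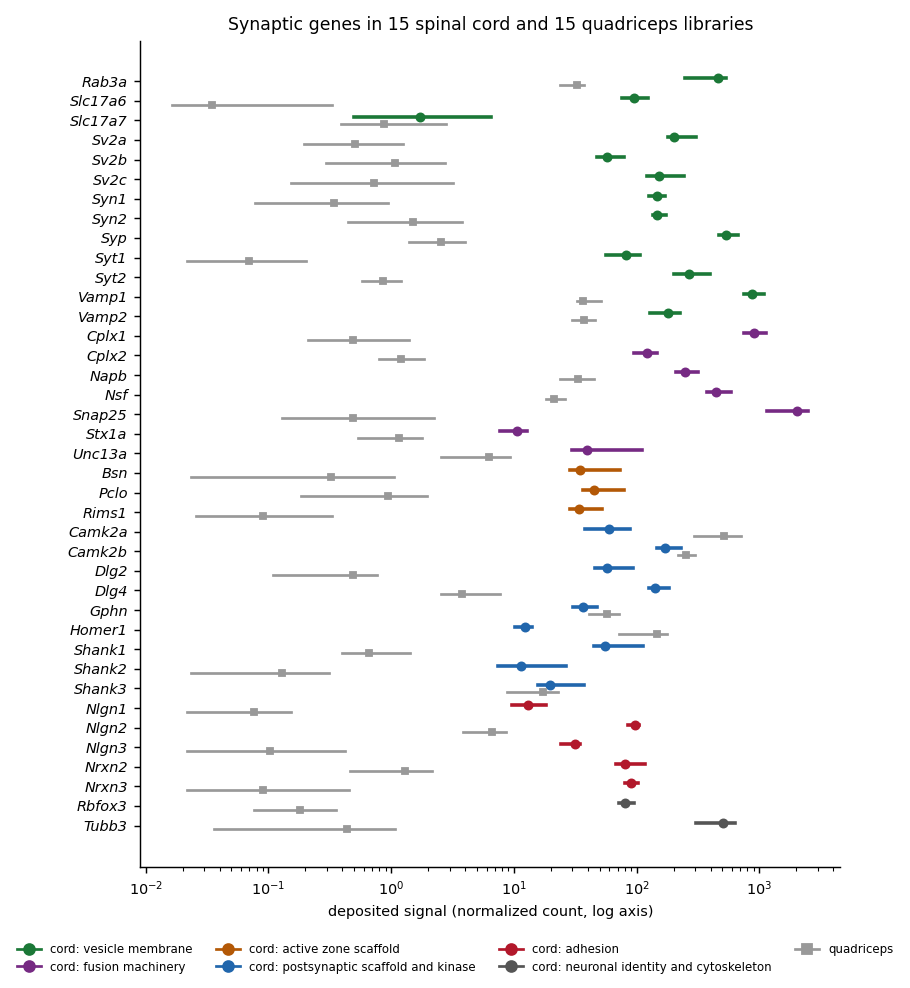
Deposited signal of the 39 genes (log axis): lines span the lowest to the highest of 15 cord libraries (coloured by role) or of 15 quadriceps libraries (grey), and points mark medians. In 33 genes every cord library lies above every quadriceps library, while Homer1 and Camk2a lie lower in cord.

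Set against quadriceps of the same mice, 33 of the 39 genes were higher in every cord library than in any quadriceps library, and 26 did not reach a signal of 4 in any quadriceps library. Homer1, at 10.3 to 14.1 in cord against 72.4 to 177 in quadriceps, and Camk2a, at 37.8 to 87.5 in cord against 294 to 704 in quadriceps, were lower in every cord library. The ranges of Camk2b, Gphn, Shank3 and Slc17a7 overlapped between the tissues. Gphn encodes gephyrin, the scaffold of glycine and GABA receptors, and stood at 30.5 to 47.2 in cord against 41.1 to 71.96 in quadriceps. The summed muscle markers of the cord library where they were highest came to 0.828% of their quadriceps median.

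Several members come as paralogue pairs whose balance differs between regions of the nervous system, and here they give the spinal pattern of each group. The calcium sensors Syt1 and Syt2 start release, and Syt2 stood above Syt1 per kilobase of exon in WT cord (35.2 ± 3.80 against 9.69 ± 0.686 on the DBA mix, 50.5 ± 1.19 against 12.2 ± 0.537 on B6129). Syt2 averaged 348 ± 31.2 in KO and 386 ± 9.08 in WT cords on B6129, and 223 ± 20.5 in treated KO, 242 ± 13.2 in KO and 269 ± 29.03 in WT cords on the DBA mix. Syt1 averaged 88.9 ± 9.37 in KO and 102 ± 4.48 in WT cords on B6129, and 68.1 ± 7.95 in treated KO, 63.4 ± 6.09 in KO and 80.8 ± 5.72 in WT cords on the DBA mix. The vesicle SNAREs Vamp1 and Vamp2 showed 99.9 ± 6.78 against 58.3 ± 1.00 signal per kilobase on the DBA mix and 87.3 ± 2.54 against 37.4 ± 3.64 on B6129. Vamp1 averaged 808 ± 62.2 in KO and 888 ± 25.9 in WT cords on B6129, and 851 ± 35.5 in treated KO, 899.8 ± 66.7 in KO and 1016 ± 68.97 in WT cords on the DBA mix. Vamp2 averaged 144 ± 8.93 in KO and 142 ± 13.9 in WT cords on B6129, and 189 ± 11.3 in treated KO, 186 ± 5.67 in KO and 222 ± 3.83 in WT cords on the DBA mix. Vamp1 was thus the higher of its pair in WT cord per unit of length, as Syt2 was of its own pair.

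The complexins showed the same kind of order, with Cplx1 above Cplx2 at 483 ± 36.6 against 26.8 ± 2.46 signal per kilobase on the DBA mix. Cplx1 averaged 805 ± 55.4 in KO and 854 ± 13.9 in WT cords on B6129, and 882 ± 40.7 in treated KO, 959.7 ± 56.9 in KO and 1057 ± 80.2 in WT cords on the DBA mix. Cplx2 averaged 125 ± 10.1 in KO and 137 ± 8.61 in WT cords on B6129, and 104 ± 8.07 in treated KO, 109 ± 2.25 in KO and 132 ± 12.1 in WT cords on the DBA mix. In WT cords Cplx1 averaged higher on the DBA mix than on B6129, while the averages of Cplx2 differed by less than their SD. The Cplx1 difference depended on the scaling. It was not called after quantile normalization (log2 0.013) or when scaled to the total without mitochondrial genes (log2 0.085). Of the SV2 glycoproteins, which bind vesicle synaptotagmin, Sv2a was highest per kilobase in WT cord of the DBA mix (42.8 ± 3.36), followed by Sv2c (15.9 ± 1.18) and Sv2b (6.94 ± 0.644). Sv2a averaged 289 ± 15.5 in KO and 297 ± 5.97 in WT cords on B6129, and 192 ± 10.2 in treated KO, 190.1 ± 8.18 in KO and 198 ± 15.6 in WT cords on the DBA mix. Sv2c averaged 191 ± 25.2 in KO and 228 ± 16.2 in WT cords on B6129, and 139 ± 15.5 in treated KO, 139.5 ± 12.4 in KO and 155 ± 11.4 in WT cords on the DBA mix. Sv2b averaged 69.2 ± 4.95 in KO and 75.6 ± 4.42 in WT cords on B6129, and 53.2 ± 3.18 in treated KO, 52.9 ± 4.98 in KO and 58.2 ± 5.40 in WT cords on the DBA mix. All 3 averaged lower on the DBA mix than on B6129 in both genotypes.

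The CaMKII subunits are the abundant kinase of the postsynaptic density. Camk2b stood above Camk2a in WT cord, at 18.8 ± 0.309 against 8.19 ± 0.790 signal per kilobase on the DBA mix and 25.1 ± 0.394 against 11.3 ± 0.460 on B6129. Camk2b averaged 202 ± 1.17 in KO and 229 ± 3.59 in WT cords on B6129, and 155 ± 8.94 in treated KO, 152 ± 3.85 in KO and 172 ± 2.82 in WT cords on the DBA mix. Camk2a averaged 73.2 ± 11.8 in KO and 84.6 ± 3.43 in WT cords on B6129, and 48.8 ± 6.33 in treated KO, 45.9 ± 7.18 in KO and 61.2 ± 5.90 in WT cords on the DBA mix. Slc17a6 encodes the vesicular glutamate transporter VGLUT2. Slc17a6 averaged 111 ± 5.48 in KO and 122 ± 1.38 in WT cords on B6129, and 83.7 ± 7.84 in treated KO, 85.7 ± 4.38 in KO and 101 ± 15.5 in WT cords on the DBA mix.

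Its paralogue Slc17a7 (VGLUT1) was the lowest member per kilobase and by far the most variable, resting on 16 to 366 reads. Its signal was 5.70, 2.05 and 0.502 in KO against 1.09, 1.78 and 6.55 in WT cords on B6129, and 1.34, 0.685 and 0.915 in treated KO and 0.746, 2.66 and 1.01 in KO against 2.51, 1.72 and 2.31 in WT cords on the DBA mix. The groups overlapped on B6129, where its coefficient of variation was 97.1% in KO and 94.8% in WT cords. Among the other 38 members the highest coefficient of variation in any group was 21.8% (Shank2 in treated KO cords), and the median over the 39 was 4.06% to 7.52% by group.

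Promoter windows show the letters upstream of Syn2, Syn1 and Unc13a. Syn2 was called lower in KO of the DBA mix in each fit that left out 1 library, as was Dlg2, which is not printed. Its paralogue Syn1 was not called in any KO comparison. Unc13a was not called in any of them either, and was the member that differed most between backgrounds. Each window holds 250 bases before and 50 bases after the RefSeq start (GRCm38.p6), and capitals mark matches, on either strand, to 4 motifs searched. These were TTCAGCACC and GGACAGCG, the left and right parts of the RE1 element bound by REST, a repressor of neuronal genes, the cyclic AMP response element TGACGTCA, and the SP1 box GGGCGG. Matches overlap in none of the 3 windows.
Syn1, chrX:20920869-20921168, minus strand: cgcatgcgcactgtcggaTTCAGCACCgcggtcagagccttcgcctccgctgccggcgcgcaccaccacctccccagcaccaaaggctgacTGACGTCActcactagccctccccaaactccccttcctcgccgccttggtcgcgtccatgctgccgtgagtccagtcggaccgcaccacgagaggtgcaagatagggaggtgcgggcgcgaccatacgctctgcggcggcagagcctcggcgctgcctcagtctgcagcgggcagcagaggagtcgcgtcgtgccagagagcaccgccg
Syn2, chr6:115134652-115134951, plus strand: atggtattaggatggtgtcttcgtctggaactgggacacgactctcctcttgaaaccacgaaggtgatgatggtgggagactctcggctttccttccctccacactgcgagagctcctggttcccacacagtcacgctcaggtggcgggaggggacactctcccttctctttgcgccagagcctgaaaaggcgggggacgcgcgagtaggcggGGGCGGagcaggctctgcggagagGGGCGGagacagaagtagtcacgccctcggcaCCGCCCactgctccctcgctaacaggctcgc
Unc13a, chr8:71671708-71672007, minus strand: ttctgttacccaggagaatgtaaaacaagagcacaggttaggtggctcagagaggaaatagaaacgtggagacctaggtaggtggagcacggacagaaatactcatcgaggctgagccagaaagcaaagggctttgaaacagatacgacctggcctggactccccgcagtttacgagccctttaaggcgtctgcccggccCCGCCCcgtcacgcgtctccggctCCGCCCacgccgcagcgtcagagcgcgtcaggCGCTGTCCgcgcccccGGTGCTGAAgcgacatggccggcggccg
The Syn1 window holds the left RE1 part and 1 cyclic AMP response element, the Unc13a window both RE1 parts and 2 SP1 boxes, and the Syn2 window 3 SP1 boxes.

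Windows were found for 32 of the 39 genes, 48 in all. TTCAGCACC stood in 3 of the 48 (Nlgn1, Syn1 and Unc13a), or 6.25%, against 0.371% of 32851 windows of all genes. GGACAGCG stood in 1 (1.26% of all windows), TGACGTCA in 1 (1.79% of all windows) and GGGCGG in 24, or 50%, against 35.7% of all windows. A match is a description of these letters and marks no binding site. Of the 9 genes called lower in KO on the DBA mix, Syn2, Camk2b, Dlg4 and Syt1 have a GGGCGG match and none has either RE1 part in the windows searched, which did not include Vamp2 and Camk2a.

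On the DBA mix, 9 of the 39 synaptic genes were lower in KO than in WT cords and 0 were higher. Over all tested genes, 5.85% were called lower and 7.16% higher in this comparison. The 9 were Syn2, Vamp2 and Syt1 of the vesicle membrane, Cplx2 and Napb of the fusion machinery, and Dlg2, Dlg4, Camk2a and Camk2b of the postsynaptic side. Their levels in KO were 11.3% to 25.2% below WT. In whole tissue, fewer cells of a type and less RNA per cell cannot be told apart.

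By role, 3 of 13 vesicle membrane genes, 2 of 7 fusion genes and 4 of 9 postsynaptic genes were called lower, and 0 of 3 active zone, 0 of 5 adhesion and 0 of 2 identity genes. Of the 39 differences, 34 lay below 0, with a median of -0.14 against -0.0067 over all tested genes. Each of the 13 vesicle membrane genes was below 0, with differences from -0.55 (Slc17a7, on few reads) to -0.057 (Rab3a). At an unadjusted p under 0.05, 16 members were lower and 1 higher, where 28.7% of all genes passed and 14.1% were lower. The 15 members whose KO libraries all lay below all WT libraries compare with 14.3% of all tested genes in that state. In 2 members, Shank1 and Nlgn2, every KO library lay above every WT library, beside 14.9% of all tested genes.

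Among vesicle genes, Syn2, whose promoter is printed above, encodes a synapsin, which tethers vesicles in the reserve pool (chr6:115134902-115282006, plus strand, GRCm38). Syn2 had 141, 139 and 135 in treated KO and 139, 149 and 144 in KO cords, against 166, 164 and 173 in WT cords. The KO libraries lay below the WT libraries (-0.22 ± 0.046, adjusted p = 0.00822, limma). Vamp2, at chr11:69088490-69092384 on the plus strand, encodes the vesicle SNARE synaptobrevin-2. Vamp2 had 201, 188 and 179 in treated KO and 186, 192 and 180.5 in KO cords, against 223, 218 and 226 in WT cords. Here too the groups were apart (-0.26 ± 0.066, adjusted p = 0.0233). Syt1, at chr10:108497650-109010982 on the minus strand, is a fast calcium sensor of release. Syt1 had 77.2, 64.7 and 62.5 in treated KO and 65.2, 68.4 and 56.6 in KO cords, against 74.9, 81.2 and 86.3 in WT cords. Its KO libraries were below the WT libraries, with a wider spread (-0.35 ± 0.093, adjusted p = 0.0254).

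In the fusion machinery, Cplx2 lies at chr13:54371349-54383917 on the plus strand. Cplx2 had 111, 107 and 95.4 in treated KO and 107, 109 and 111 in KO cords, against 128, 123 and 146 in WT cords. The KO libraries were below all WT libraries, and WT replicate 4 gave the highest value of its group (-0.27 ± 0.076, adjusted p = 0.0304). Napb encodes beta-SNAP, the adaptor by which the ATPase NSF takes spent SNARE complexes apart (chr2:148693985-148732467, minus strand). Napb had 241, 217 and 209 in treated KO and 229, 240.2 and 248 in KO cords, against 278, 260.3 and 313 in WT cords. The same WT library was again the highest (-0.24 ± 0.075, adjusted p = 0.0461). Snap25 and Stx1a, the plasma membrane SNAREs, had differences of -0.075 ± 0.075, adjusted p = 0.55, and -0.31 ± 0.13, adjusted p = 0.144, and Unc13a, the priming factor Munc13-1, 0.0042 ± 0.086, adjusted p = 0.982.

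On the postsynaptic side, Dlg2 and Dlg4 encode the membrane-associated scaffolds PSD-93 and PSD-95. Dlg2 had 51.6, 45.6 and 47.4 in treated KO and 48.1, 45.9 and 48.4 in KO cords, against 57.4, 55.8 and 63.8 in WT cords. Dlg2 (chr7:90476672-92449247, plus strand) gave the smallest p of the set, with the KO group apart from the WT group (-0.31 ± 0.062, adjusted p = 0.00668). Dlg4 had 154, 142 and 136 in treated KO and 142, 155 and 147 in KO cords, against 178, 159.6 and 185 in WT cords. Dlg4 (chr11:70016942-70047522, plus strand) was lower in each KO library than in any WT library (-0.23 ± 0.068, adjusted p = 0.0374). Camk2b had 163, 157 and 145 in treated KO and 151, 156 and 149 in KO cords, against 171, 169 and 175 in WT cords. Camk2a had 56.1, 45.7 and 44.6 in treated KO and 51.5, 48.3 and 37.8 in KO cords, against 54.4, 65.2 and 63.9 in WT cords. Both kinase subunits were lower in KO with no overlap, Camk2b (chr11:5969644-6066362, minus strand) narrowly and with little spread (-0.17 ± 0.042, adjusted p = 0.0174), Camk2a (chromosome 18) more widely (-0.42 ± 0.13, adjusted p = 0.0479). Camk2a, at 294 to 704 in quadriceps, was highest of the WT group in replicate 3, a library high in muscle markers. Without that library it was not called, and the part of muscle signal in its difference was not tested.

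No scaffold of the active zone was called. Bsn, Pclo and Rims1, which organise vesicle docking sites, had KO minus WT differences of -0.091, 0.034 and -0.17. Among adhesion genes, Nlgn1 was the lowest at -0.24 ± 0.082, adjusted p = 0.07, and Nlgn2, the neuroligin of inhibitory synapses, the highest at 0.13 ± 0.054, adjusted p = 0.12. Rbfox3, which encodes the neuronal nuclear antigen NeuN, and Tubb3 went opposite ways (-0.13 ± 0.058, adjusted p = 0.148, and 0.16 ± 0.076, adjusted p = 0.188), and neither was called.

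**Figure D2:**
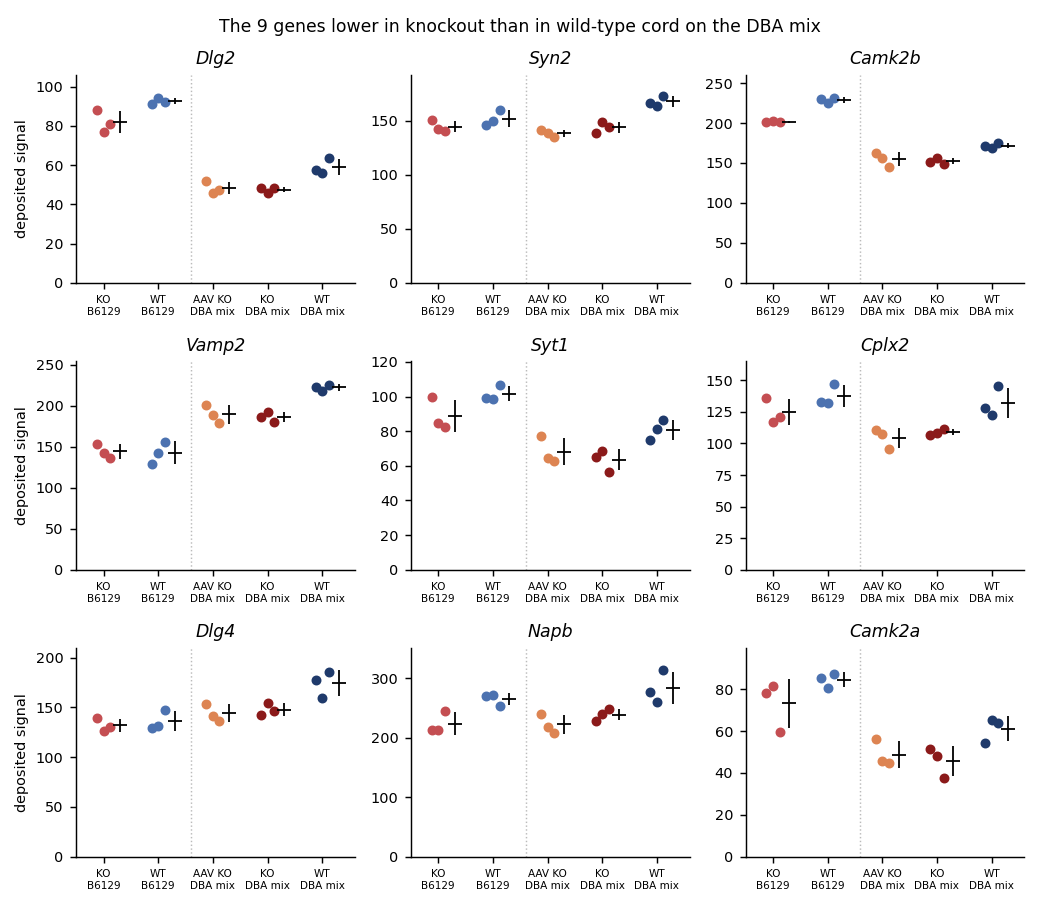
Deposited signal of the 9 genes called lower in KO than in WT cords of the DBA mix, in all 15 cord libraries (points; black marks show mean and SD, n = 3 libraries). On the DBA mix the 3 KO points of each gene lie below the 3 WT points, and treated KO points lie near those of untreated KO.

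The calls rest on few libraries. WT replicate 4 was the highest of its group in 34 of the 39 genes, with a summed synaptic signal of 10104 against 8797 and 9379 in the other WT libraries, and without it 2 members were called. Without KO replicate 8 the count was 2, and without KO replicate 6 it was 4. The share of all tested genes called lower fell too, to 1.95%, 3.95% and 3.02% in these 3 fits, against 5.85% with every library. Dlg2 and Syn2 stayed called in each of the 6 fits that left out a library, with adjusted p up to 0.0333 and 0.0397. After quantile normalization 3 members were called (Dlg2, Nlgn1 and Syn2), and in a fit of only the KO and WT libraries 2 (Dlg2 and Vamp2), where 4.46% and 1.18% of all tested genes were lower. On recovered reads edgeR called 8 members lower, the 9 without Camk2a, and DESeq2 12, among them the 9. Of all tested genes 5.63% and 7.55% were lower in these fits. Without the pair of libraries with high muscle markers 11 were called, where 6.51% of all tested genes were lower. Among them were 8 of the 9 above, Camk2a being the exception.

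On B6129, 0 of the 39 genes were called between KO and WT cords by limma, where 1.16% of all tested genes were called. At an unadjusted p under 0.05, 7 members were lower and 0 higher, where 10.9% of all genes passed that rule and 5.78% were lower. Of the 39 differences 30 were below 0, with a median of -0.13 against -0.023 for all tested genes, and 11 members had every KO library below every WT library (14.5% of all genes). edgeR's quasi-likelihood test called 0 members as well, and DESeq2 called 1, Camk2b, where 1.21% and 2.44% of all tested genes were called.

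Camk2b had 201, 203 and 201 in KO, against 231, 225 and 232 in WT cords on B6129. The KO libraries were nearly equal to each other and all below WT (-0.18 ± 0.042, adjusted p = 0.0538), just short of the threshold, and DESeq2 gave adjusted p = 0.00323 in a range of 0.00323 to 0.339 over its alternatives. Napb had 213, 213 and 245 in KO, against 269.9, 272 and 254 in WT cords (-0.25 ± 0.075, adjusted p = 0.169). Dlg2 had 87.9, 76.8 and 81.1 in KO, against 91.4, 94.1 and 92.4 in WT cords (-0.18 ± 0.062, adjusted p = 0.255). In each of these 3 genes the KO libraries lay below the WT libraries, as they did on the DBA mix.

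Whether the KO effect itself was unequal on the backgrounds was tested as an interaction, and 0 of the 39 genes were called, beside 0.524% of all tested genes. At an unadjusted p under 0.05 there were 2 members, both vesicle genes with a lower KO effect on the DBA mix, where 4.34% of all genes were lower by that rule. Vamp2 gave -0.28 ± 0.094, adjusted p = 0.253. On B6129 its libraries read 154, 143 and 136 in KO against 128, 143 and 156 in WT cords, which overlap. Syn2 gave -0.15 ± 0.065, adjusted p = 0.392, and Homer1, next by p, -0.27 ± 0.13, adjusted p = 0.458. edgeR and DESeq2 also called 0 members, beside 0.41% and 1.76% of all tested genes. So a call on the DBA mix and none on B6129 is not shown to be a difference between the backgrounds.

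**Figure D3:**
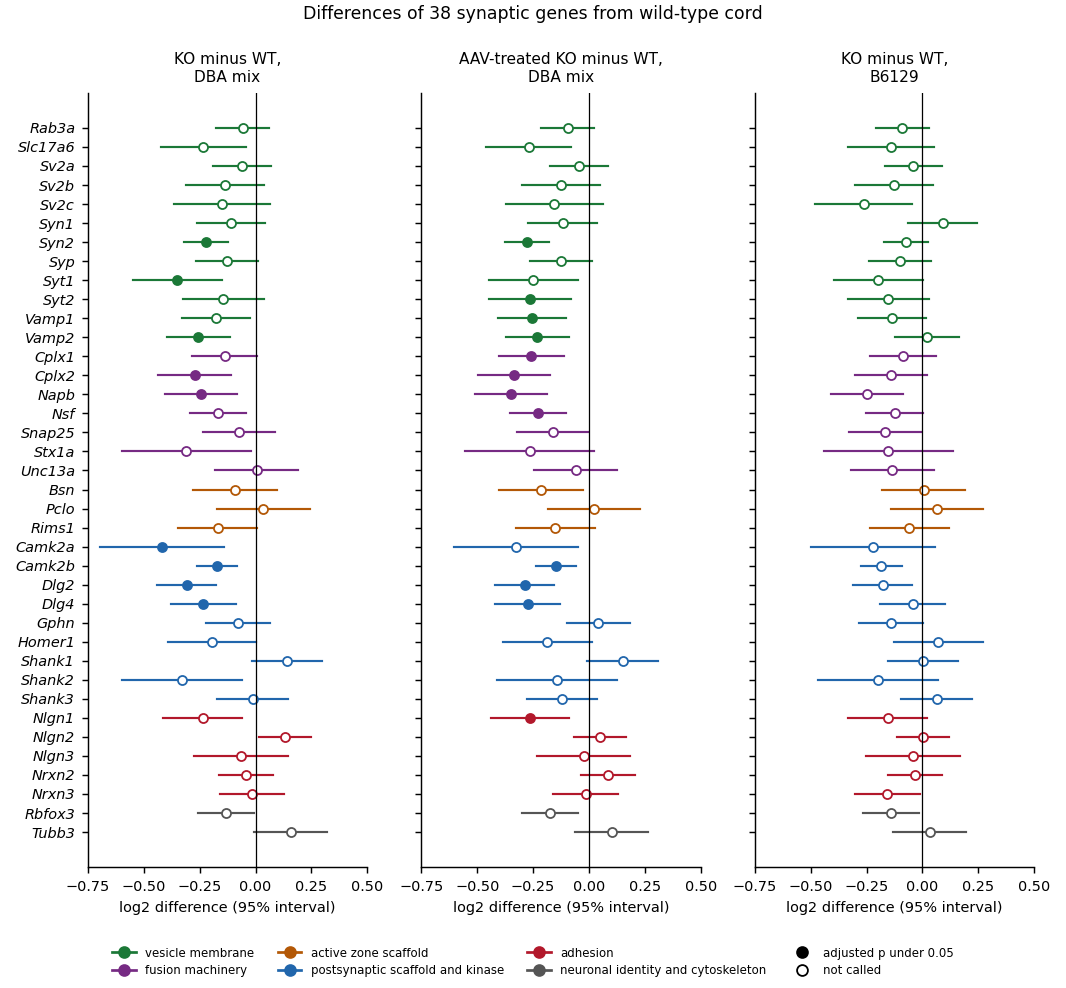
Log2 differences of 38 synaptic genes with 95% intervals, for KO minus WT and treated KO minus WT on the DBA mix and KO minus WT on B6129, coloured by role (Slc17a7 is left out for its wide interval). Filled points are called: 9, 12 and 0 from left to right, all of them below 0.

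Between treated and untreated KO cords of the DBA mix 0 of the 39 members were called by limma, and 0 (0%) of the 15838 tested genes. At an unadjusted p under 0.05 there was 1 member, against 10.7% of all genes. The median difference was -0.013, against -0.00059 for all tested genes. For the 38 members other than Slc17a7, each 95% interval lay within 1.5-fold either way, the bounds running from -0.31 (Bsn) to 0.46 (Shank2). edgeR and DESeq2 called 0 members too, and 2 and 155 of all genes.

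The member with p under 0.05 was Nrxn2, a presynaptic neurexin, with 80.8, 81.6 and 71.3 in treated KO, against 69.9, 68.2 and 75.1 in KO cords. These groups overlapped (0.13 ± 0.056, adjusted p = 0.416). Gphn had 35.96, 36.2 and 33.7 in treated KO, against 34.5, 30.5 and 32.3 in KO cords (0.12 ± 0.067, adjusted p = 0.547). Cplx1 had 908, 904 and 835 in treated KO, against 943, 913 and 1023 in KO cords, with no overlap (-0.12 ± 0.068, adjusted p = 0.57).

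Against the same WT libraries, treated KO cords had 12 of the 39 genes lower and 0 higher, where 7.95% of all tested genes were lower and 8.81% higher. The 12 were Syn2, Vamp1, Vamp2 and Syt2 of the vesicle membrane, Napb, Cplx1, Cplx2 and Nsf of the fusion machinery, Dlg2, Dlg4 and Camk2b of the postsynaptic side, and the adhesion gene Nlgn1. Of them, 7 were also among the 9 called in untreated KO, which shares the WT libraries. Camk2a and Syt1 were called in untreated KO alone, and Cplx1, Nlgn1, Nsf, Syt2 and Vamp1 in treated KO alone. These members were not called between treated and untreated KO either.

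Beside the values given above, the differences of treated KO from WT were -0.28 ± 0.046, adjusted p = 0.00176 for Syn2, -0.35 ± 0.075, adjusted p = 0.00721 for Napb and -0.29 ± 0.062, adjusted p = 0.00735 for Dlg2. Cplx2 gave -0.33 ± 0.076, adjusted p = 0.00947 and Cplx1 -0.26 ± 0.068, adjusted p = 0.0203, so both complexins were lower. Cplx1 had 908, 904 and 835 in treated KO and 943, 913 and 1023 in KO cords, against 1054, 978 and 1138 in WT cords. Nsf encodes the ATPase that recycles SNARE complexes. Nsf had 414, 389 and 374 in treated KO and 399, 409 and 419 in KO cords, against 447, 435 and 499.9 in WT cords. Its treated libraries were the lowest of the 3 groups on average (-0.23 ± 0.059, adjusted p = 0.0171). Vamp1, whose human gene is mutated in a spastic ataxia and in a congenital myasthenic syndrome, followed the same order. Vamp1 had 862, 879 and 811 in treated KO and 896, 835 and 968 in KO cords, against 993, 962 and 1094 in WT cords. Its difference from WT was -0.26 ± 0.071, adjusted p = 0.0253, beside -0.23 ± 0.066, adjusted p = 0.0294 for Vamp2. Dlg4 gave -0.27 ± 0.068, adjusted p = 0.0152 and Camk2b -0.15 ± 0.042, adjusted p = 0.0287. Nlgn1 and Syt2 complete the 12 with -0.26 ± 0.082, adjusted p = 0.0408 and -0.26 ± 0.085, adjusted p = 0.0468.

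This count also rests on single libraries. The third treated library, which had the muscle markers above and Schwann cell markers of 891 against 277 and 144 in the other treated libraries, was the lowest of its group in 34 of the 39 genes. WT replicate 3 stood apart alike, with Schwann cell markers of 553 against 84.1 and 91.8 in the other WT libraries, and was the lowest WT library in 27 of the 39 genes. Without the third treated library 4 members were called, as without WT replicate 4, and without the second treated library 7. In these 3 fits 5.07%, 3.73% and 5.25% of all tested genes were lower, against 7.95% with every library. Syn2, Cplx2, Napb and Dlg2 were called in each of the 6 fits that left out a library, with adjusted p up to 0.0445. Without both libraries high in muscle markers 8 were called, and in a fit of only treated KO and WT libraries 1, Syn2, where 5.22% and 1.42% of all tested genes were lower. edgeR called 13 members and DESeq2 15, both sets including the 12, where 7.99% and 8.99% of all tested genes were lower.

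Markers of cell types moved beside these results. Microglia markers (7 genes summed) were 299, 308 and 322 in KO against 187, 196 and 185 in WT cords on B6129, and 304, 267 and 348 in treated KO and 349.9, 367 and 354 in KO against 192, 200.5 and 197 in WT cords on the DBA mix. Astrocyte markers (7 genes) were 4555 to 4975 in KO against 3337 to 3667 in WT cords on B6129, and 5523 to 6638 in treated KO and 5635 to 5921 in KO against 3714 to 4039 in WT cords on the DBA mix. Both sums were higher in every KO library, with the smallest p that 3 against 3 libraries allow in an exact two-sided permutation test (p = 0.1). The microglia genes moved as a list, with 7 of 7 called higher in KO on the DBA mix and 4 of 7 on B6129. Over all tested genes 7.16% were called higher on the DBA mix and 0.998% on B6129. The astrocyte sum was carried by Gfap, the filament gene of reactive astrocytes, with a mean of 2841 in KO against 1080.5 in WT cords of the DBA mix. Of the 7 astrocyte genes only Gfap and Aqp4 were called there, 2 lay below 0 (Gja1 at 193 in KO against 216 in WT, and Slc1a3 at 63.6 against 66.3), and the median difference was 0.034.

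Neuronal markers were less uniform. The 12 pan-neuronal markers summed to 5733, 6034 and 6295 in KO, against 6224, 6121 and 7054 in WT cords of the DBA mix, which overlap, and KO was at 0.931 of WT (exact permutation p = 0.3). On B6129 the ratio was 0.939 (p = 0.2, exact), and for treated KO over WT it was 0.899 (p = 0.1, exact). The summed signal of the 39 synaptic genes overlapped on the DBA mix too, at 8479, 8805 and 8856 in KO against 9379, 8797 and 10104 in WT cords. On B6129 the sums of the 39 did not overlap. Of the 12 pan-neuronal markers 10 lay below 0 in KO on the DBA mix, with a median difference of -0.13. For the synaptic genes it was 34 of 39, with a median of -0.14. On the DBA mix 3 of the 12 were called lower in KO (Gap43, Ina and Elavl4) and 1 higher (Mapt), beside 5.85% and 7.16% of all tested genes. In treated KO against WT 7 of the 12 were called lower (these 3, Stmn2, Eno2, Map2 and Stmn3) and 1 higher (Mapt), beside 7.95% and 8.81% of all tested genes. The 8 motor neuron markers summed to 1.22 times WT in KO on the DBA mix (exact p = 0.1), 1.09 times in treated KO (exact p = 0.4) and 1.11 times in KO on B6129 (exact p = 0.5). Of the 8, 6 lay above 0 in KO on the DBA mix, with a median difference of 0.18, and only Prph was called (121 in KO against 91.6 in WT). The 2 others, the cholinergic genes Chat (9.27 against 9.55) and Slc5a7 (36.8 against 38.3), lay slightly below WT. Of 6 sensory ganglion markers only Avil was in the table, at 0.0144 to 4.64. Endothelial markers were 1.47 times WT in KO cords of the DBA mix (exact p = 0.1) and 1.05 times on B6129 (exact p = 0.6). The part of these markers in the synaptic results was not tested.

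**Figure D4:**
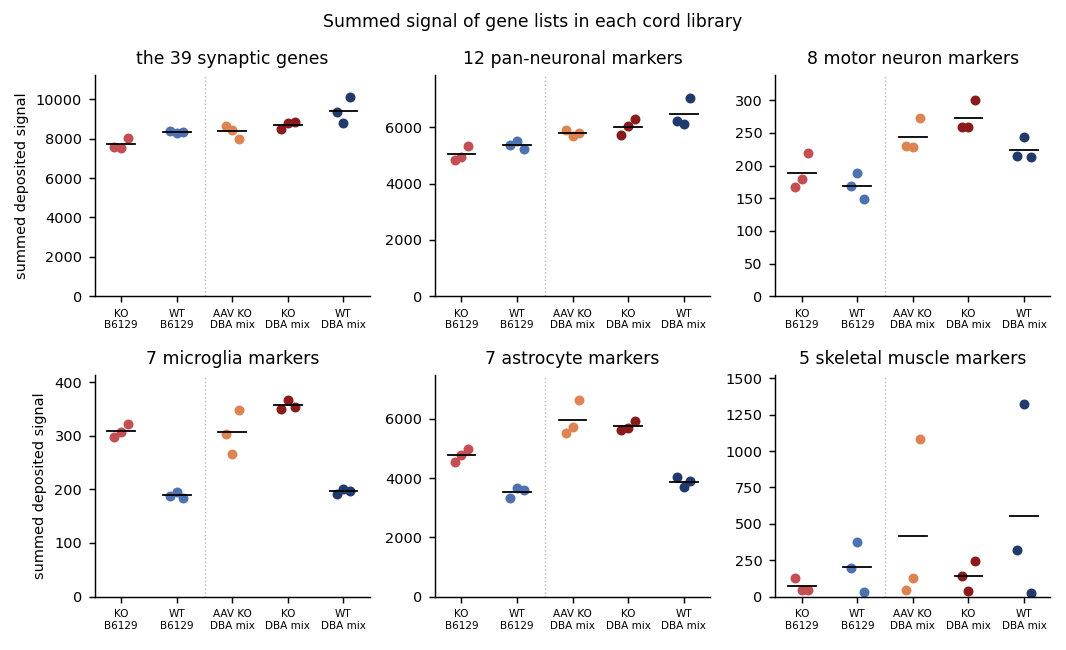
Summed deposited signal of the 39 synaptic genes and of 5 marker lists in each of 15 cord libraries (points; lines are means of 3). Microglia and astrocyte sums are higher in each KO group than in its WT group, and 1 treated KO and 1 WT library of the DBA mix exceed 1000 in muscle markers. Pan-neuronal sums of untreated KO and WT overlap on either background, and those of the 39 synaptic genes on the DBA mix only.

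A second list held 55 other synapse genes. Between KO and WT cords of the DBA mix 15 of them were lower and 1 higher, with a median of -0.17, where 5.85% of all tested genes were lower and 7.16% higher. By mean signal in KO against WT, those lower included Syngr1, a synaptogyrin (121 against 158, -0.38 ± 0.09, adjusted p = 0.0162), and the inhibitory transporters Slc6a5 for glycine (109 against 140.2, -0.36 ± 0.11, adjusted p = 0.046) and Slc32a1, the vesicular carrier of GABA and glycine (68.7 against 82.7, -0.26 ± 0.073, adjusted p = 0.0318). Homer3, a Homer scaffold, was higher (15.5 against 10.7, 0.52 ± 0.12, adjusted p = 0.0116). In treated KO against WT cords 22 were lower and 1 higher, where 7.95% of all tested genes were lower and 8.81% higher, and between treated and untreated KO 0 were called. On B6129 0 of the 55 were called between KO and WT, with 14 lower and 1 higher at an unadjusted p under 0.05, a rule by which 5.78% of all genes were lower.

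Between WT cords of both backgrounds the set differed far more than by genotype, as did the whole table. Of the 39 members 11 were higher and 22 lower on the DBA mix than on B6129, where 32.3% of all tested genes were called higher and 34.5% lower. The split depends on the scaling: after quantile normalization it was 5 higher and 27 lower, where 32.9% of all tested genes were higher and 33.8% lower. Scaled to the total without mitochondrial genes it was 4 higher and 25 lower, where 21.97% of all tested genes were higher and 46.8% lower and their median stood at -0.22. The mitochondrial share of reads was 13.2% to 17.1% in cord libraries of the DBA mix, against 6.99% to 7.7% on B6129. Rab3a, Snap25, Tubb3 and Vamp2 were called higher under each of the 3 other scalings run. Cplx1, Dlg4 and Homer1 stayed above 0 under each but lost the call in at least 1. Syn1, Syn2, Vamp1 and Syp turned below 0 in at least 1 of them, Syn2 and Vamp1 being called lower after quantile normalization. Of the 22 lower, 21 stayed called under all 3, the exception being Nrxn3, which was not called with median centring.

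Unc13a, whose promoter is printed above, differed most. Its libraries had 35.9, 34.5 and 39.04 in WT cords of the DBA mix, against 107, 102 and 111 in WT cords on B6129 (-1.54 ± 0.086, adjusted p = 1.42e-09). Its KO libraries were apart in the same direction, with 36.2, 35.4 and 38.1 on the DBA mix and 95.3, 91.3 and 105 on B6129. All 3 Shank scaffolds, which link receptor complexes to actin, were lower as well: Shank2 (-1.27 ± 0.13, adjusted p = 4.85e-07), Shank1 (-1.05 ± 0.074, adjusted p = 1.35e-08) and Shank3 (-0.76 ± 0.074, adjusted p = 3.98e-07). Among the 10 members with the smallest p were also the active zone scaffold Bsn (-0.85 ± 0.087, adjusted p = 7.3e-07), Dlg2 (-0.65 ± 0.062, adjusted p = 3.26e-07), Nrxn2 (-0.63 ± 0.056, adjusted p = 1.71e-07) and Camk2b (-0.41 ± 0.042, adjusted p = 6.65e-07).

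In the other direction, Rab3a had 525, 498 and 519 in WT cords of the DBA mix, against 281, 274 and 280.1 on B6129 (0.88 ± 0.055, adjusted p = 4.19e-09). Snap25 had 2310.1, 2049 and 2504, against 1393, 1339 and 1352 on B6129 (0.74 ± 0.075, adjusted p = 5.91e-07). Neither gene's libraries overlapped between the backgrounds.

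These differences followed gene length. Over the 39 members the log2 difference of WT cords fell with the exonic length of the gene (Spearman's rho -0.59), and over 15810 tested genes with a length rho was -0.53. The points share the same 6 libraries. The median exonic length was 5211 bases for the 11 higher members and 9157 for the 22 lower ones. Over all tested genes the median difference was 0.79 in the shortest of 10 equal length classes and -0.52 in the longest. Rab3a (2226 bases) and Tubb3 (1868 bases) are short, while Pclo (22457 bases), Dlg2 (16280) and Bsn (15938) are long. For KO minus WT on the DBA mix rho was 0.037 over the members and 0.082 over all genes. Background, series and this length dependence cannot be told apart.

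**Figure D5:**
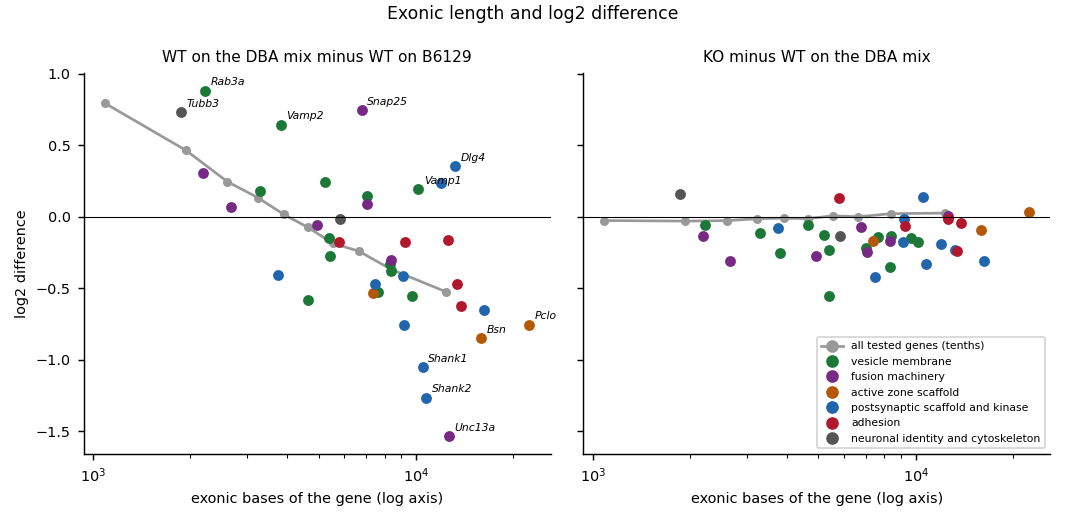
Log2 difference against exonic length in bases (log axis) for the 39 genes, coloured by role, and for all tested genes as medians of 10 equal length classes (grey). Left, WT on the DBA mix minus WT on B6129 falls with length; right, KO minus WT on the DBA mix shows no such slope.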

How the data were processed

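Poly(A) RNA of quadriceps and spinal cord was sequenced single-end, 61 bases, from NEBNext Ultra libraries (per the labels' protocols); cutadapt, RSEM, limma, edgeR and GRCm38 are named in the submitters' processing notes, without versions. The deposited signal values of 17420 genes equal, as tested on the file, reads plus 0.5 over a scaled library size, and 100% of them gave whole reads within 0.001. The authors' choices of filter and reference annotation are not given in the sources used here.

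The test took the 15838 genes that reached a signal of 1 in 3 or more cord libraries. limma 3.58.1 (R 4.3.3, eBayes with trend) was fitted to log2(signal + 0.5) in 1 model of 5 groups over 15 cord libraries, and p-values were adjusted by Benjamini-Hochberg over all genes tested. edgeR 4.0.16 (quasi-likelihood) and DESeq2 1.42.0 on recovered reads, other pseudocounts, filters and scalings, and fits leaving out libraries were the alternatives. Only the limma fit was checked on simulated data, and only for treated against untreated KO. Depth was 19208733 to 34207758 reads per cord library, and 1 library at 19208733 reads gives a signal of 0.0312 for 1 read. Treated cord columns were joined by group only, since the descriptions of 3 treated samples name 2 columns. The labels' protocols pair quadriceps and cord by animal, and nothing further on litters is given, so p-values measure only the spread between these libraries.

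The 39 genes and the other lists were chosen with earlier results of these data known. Named genes are, per comparison, the called members (at most 10 by p), or the 3 with the smallest p where none was called, plus paralogue pairs; the genes of the second synapse list that are named were chosen after their values were seen. Exonic lengths and positions come from GENCODE on GRCm38 (17388 genes matched), promoter windows from RefSeq on GRCm38.p6. Of Dlg2, which has a pair of rows, the row with signal was used; the other stayed at or below 0.937.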

Additional observations from a re-analysis of the deposited data

How the results depend on the processing

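Of the synaptic genes, limma called 9 lower in KO than in WT cords of the DBA mix; this became 3 after quantile normalization and 2 in a fit of only the groups compared, was 8 with edgeR and 12 with DESeq2, and ranged from 2 to 9 over fits that left out 1 library each. In the order named, 4.46%, 1.18%, 5.63% and 7.55% of all tested genes were lower in these fits, and 1.95% to 5.54% without 1 library. For treated KO against WT on the DBA mix the 12 became 1 in a fit of only the groups compared, 13 with edgeR and 15 with DESeq2. Without 1 library the count ranged from 4 to 17. Of all tested genes 1.42%, 7.99% and 8.99% were lower there, and 3.73% to 8.04% without 1 library. On B6129 the 0 became 1 (Camk2b) in a fit of only the groups compared and 1 (Camk2b) with DESeq2, and stayed at 0 without any 1 library. Of all tested genes 1.88% and 2.44% were called in the first 2 of these. The interaction of genotype with background, and treated against untreated KO, stayed at 0 in each alternative run. WT against WT ranged from 28 to 31 without 1 library, where 62.3% to 64.2% of all tested genes were called. Why the counts moved was not tested. The main model pools 1 spread over 5 groups, while a fit of only the groups compared takes its spread from those groups alone. In such fits the calls over all tested genes went from 2061 to 570 for KO against WT on the DBA mix. They went from 2654 to 531 for treated KO against WT, and from 183 to 297 for KO against WT on B6129. Of 623 alternative values of the genes named by rule (at most 10 per comparison), 542 stayed on their side of the threshold, 79 lost the call, 2 gained it and 0 turned direction; outside these, Syn1, Syn2, Vamp1 and Syp turned below 0 between WT cords under other scalings. No paired analysis was possible because the groups compared come from different animals, and replicate numbers do not pair them. The treated cord columns carry no replicate number that the labels settle. Slc17a7 rests on 16 to 366 reads per library, and the source of its wide spread was not tested.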
